A study of Arabidopsis thaliana with 39 samples.

Results

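The 71 sequences described here are mature miRNAs of Arabidopsis thaliana with a number between 770 and 870. They were chosen by that number alone, leaving out the 17 families miR773, miR775, miR778, miR822, miR823, miR824, miR825, miR827, miR828, miR839, miR842, miR843, miR846, miR857, miR858, miR866 and miR869. A sequence given by several genes was kept once, such as miR854a,b,c,d,e. This left 71 of the 353 distinct sequences counted in the series, with 43 different miRNA numbers among them.

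Small RNAs of Col-0 wild type plants were sequenced in 13 groups of 3 biological replicates. Rosette leaves came from plants in soil dried to 30% water (D30) and their watered controls (C30), both 27 days old, and from plants in soil dried to 20% water (D20) and their watered controls (C20), both 30 days old. Whole seedlings of 15 days were held at 37 °C for 0.5 h (H0.5) or 6 h (H6), with unheated seedlings as control (H0). Other seedlings of 15 days were kept for 24 h in liquid medium. It held 250 mM NaCl in the NaCl+ group, lacked copper in Cu- and lacked sulfate in S-. Cu+ received 10 µM CuSO4 and Cd+ 10 µM CdSO4. These 5 groups share the same 3 untreated libraries (C). No mutant or transgene was involved. The counts hold miRNAs only, so the organ labels were not checked against marker transcripts.

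Plant miRNAs are cut out of a folded precursor by the enzyme DICER-LIKE1, and an ARGONAUTE protein then uses the small RNA to find transcripts with a nearly complementary site, which are cleaved or kept from being translated. Either arm of the precursor (5p or 3p) can give a stable small RNA. Most miRNAs with numbers in this range are encoded by a single gene, are shared by few other plant species and are weakly expressed, which sets them apart from the old families such as miR156 or miR166. Only for a few of them is a target with a known role established.

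The sequences below are the 5 members whose level passed the test in a stress comparison, followed by 2 relatives of miR829-3p.1 that share a stretch with it. Letters are as deposited (T for U), 5′ to 3′, with bases 2 to 8, the seed, in capitals.
miR829-3p.1: aGCTCTGAtaccaaatgatggaat
miR837-3p: aAACGAACaaaaaactgatgg
miR848: tGACATGGgactgcctaagcta
miR851-3p: tGGGTGGCaaacaaagacgac
miR861-5p: cCTTGGAGaaatatgcgtcaa
miR845a: cGGCTCTGataccaattgatg
miR845b: tCGCTCTGataccaaattgatg

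The 5 members called under stress have 5 different seeds. miR829-3p.1 and miR845b share a run of 15 bases, and miR829-3p.1 shares 13 of these (gctctgataccaa) with miR845a. miR845 is known for its match to the primer binding site of LTR retrotransposons, a site that pairs with a transfer RNA. The members that differed between organs, and those that stood apart in the heat experiment, are shown where they are described.

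Libraries held 10238448 to 10741289 reads, of which 1018693 to 5036688 were counted as miRNAs. Levels are given as CPM, the reads of a sequence scaled to 1000000 miRNA reads of its library. A single read is worth 0.199 to 0.982 CPM, the most in the shallowest NaCl+ library. The members took 0.0453 to 0.0835% of the miRNA reads of a library, with a median of 0.0637%. They had 95910 reads in all 39 libraries together. A median member had 100 reads in all, against 1599 for the 25 sequences of the families left out, 6812.5 for the 112 sequences numbered from miR156 to miR408, and 69 for the other 145 sequences.

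Of the 71 members, 52 had 10 or more reads in all and 20 were seen in each of the 39 libraries. The 7 that were never seen are miR774b-5p, miR774b-3p, miR776, miR832-3p, miR856, miR868-3p and miR870-5p, and 3 reads, the limit a count of 0 allows, amount to 0.596 to 2.94 CPM in a library. Between 1 and 9 reads were counted for miR855, miR868-5p, miR845b, miR782, miR774a, miR859, miR865-5p, miR865-3p, miR826a, miR832-5p, miR836 and miR867. None of these 19 members with under 10 reads had enough reads for the edgeR test in a comparison of all libraries.

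**Figure D1:**
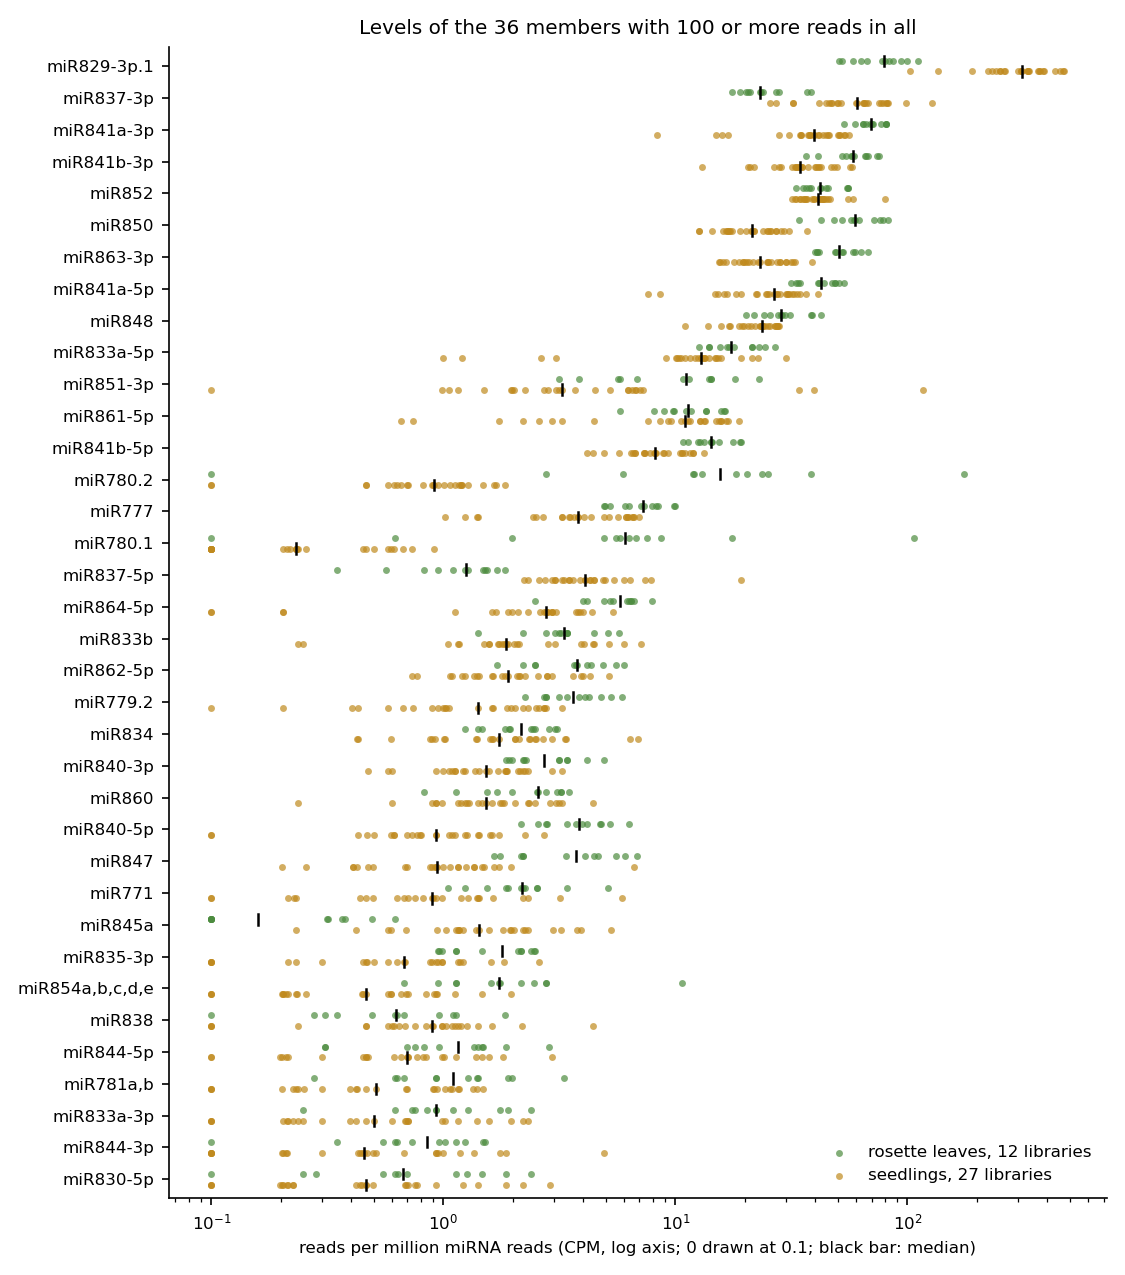
CPM of the 36 members with 100 or more reads, 1 point per library on a log axis, with the 12 leaf libraries above the 27 seedling libraries of each member and the median as a black bar. miR829-3p.1 stands above the other members in seedlings, and miR780.1 and miR780.2 are scattered over more than 2 decades in leaves.

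Member reads were concentrated in a few sequences. miR829-3p.1 alone had 37864 reads, 39.5% of the member reads, with a median of 250 CPM and a range of 50.5 to 474 CPM over libraries. The next 11 by reads were miR837-3p (7207), miR841a-3p (6768), miR841b-3p (6125), miR852 (6087), miR850 (4682), miR863-3p (4543), miR841a-5p (4290), miR848 (3644), miR833a-5p (1985), miR851-3p (1742) and miR861-5p (1583). miR852 was the steadiest of these, at 31.9 to 80.0 CPM, while miR851-3p ran from 0 to 117 CPM.

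Most members were 21 bases long (54 of 71), 15 were 22 bases and 2 were 24 bases, miR829-3p.1 and miR836. A first T was found in 50, A in 13, C in 6 and G in 2. The order by reads was another one, since the sequences with a first A held 61.4% of the member reads and those with a first T 30.1%. This order rests on 1 sequence, as miR829-3p.1 had 37864 of the 58914 reads with a first A, and 28839 reads had a first T. As background, the first base and the length take part in sorting plant small RNAs, with AGO1 preferring a 5′ U and AGO4 preferring 24-base RNAs with a 5′ A. Members with 22 bases made up 21.1% of the 71, against 8.04% of the sequences of miR156 to miR408.

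All 71 members matched the TAIR10.1 genome exactly, 65 of them at 1 place. Of these 65, 37 lay outside any other annotated gene, 11 in an intron of a protein-coding gene on the same strand, 8 in an exon of one on the same strand, 4 opposite a protein-coding gene and 5 in a noncoding gene or pseudogene. miR829-3p.1 lies at chr1:11834094-11834117 on the minus strand with no other gene, and miR861-5p at chr3:17838223-17838243 on the minus strand, likewise alone. miR848 lies at chr5:4479448-4479469 (minus) in an intron of AT5G13890. miR837-3p lies at chr1:6521053-6521073 (plus) in an intron of NRT1.9, a nitrate transporter gene. miR851-3p lies at chr3:19659577-19659597 (minus), with miR771 174 bases away on the same strand.

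Several members cannot be counted apart by locus. miR841a-3p and miR841b-3p share 19 of 21 bases and both match the precursors of MIR841a and MIR841b, at shifted ends of the same arm, so their reads cannot be assigned to either locus. The 5p sequences of these 2 precursors match once each. miR833a-5p and miR833b are not such a case, since each matches 1 place, but they have the same seed. miR833b is encoded opposite miR833a-3p in an intron of AT1G78476. miR854 has 12 matching places, mostly in pseudogenes, and miR855 has 45.
miR841a-3p: aTTTCTAGtgggtcgtattca
miR841b-3p: cAATTTCTagtgggtcgtatt
miR833a-5p: tGTTTGTTgtactcggtctagt
miR833b: tGTTTGTTgacatcggtctag

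Both arms were listed for 20 precursors, of which 16 had 10 or more reads. The 5p arm had more reads in 7 and the 3p arm in 9, and the larger arm held over 90% of the reads in 9. The widest gaps were those of miR863, with 11 reads of the 5p and 4543 of the 3p arm, and of miR829, with 97 reads of miR829-5p and 37864 of miR829-3p.1. miR840 had nearly equal arms, with 263 reads of the 5p and 279 of the 3p arm, and so had miR844, with 124 and 103. miR829-3p.2, which follows miR829-3p.1 without a gap on the precursor, had 60 reads.

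Libraries that stood apart bear on several members. In the heat experiment the libraries numbered 2 of H0, H0.5 and H6 departed together from those numbered 1 and 3. Of 184 sequences with 50 or more reads in the 9 heat libraries, 7 were at least 2-fold above or 2-fold below both others in every heat group in the libraries numbered 2, against 1 for number 1 and 0 for number 3. Of these 7, 5 are members. These members were picked out after their values were seen, and no test was made.

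miR851-3p had 117 CPM in H0, 39.4 in H0.5 and 34.1 in H6 in the libraries numbered 2, and 1.06 to 6.51 CPM in the other 6. Its neighbour miR771 had 5.89, 2.21 and 3.18 CPM in the same libraries, and 0.214 to 0.895 CPM in the others. miR831-5p had 2.64, 3.42 and 3.57 CPM, and 0.224 to 1.22 CPM in the others. These 3 were high in every heat library numbered 2. miR833a-5p was low there, with 2.64, 1.21 and 0.993 CPM against 3.05 to 21.3 CPM, and miR864-5p had 0.203 CPM in H0 and no read in H0.5 and H6, against 0.203 to 5.36 CPM. That heated and unheated libraries with that number lay on the same side in all 3 groups follows from the rule that picked these members. For each of these members but miR771, H0.5 replicate 3 lay nearest to the libraries numbered 2. It had 6.51 CPM of miR851-3p, 3.05 CPM of miR833a-5p and 1 read of miR864-5p. In the libraries numbered 2, 93.0% (H0), 97.6% (H0.5) and 92.6% (H6) of the reads mapped to the genome, against 97.8 to 98.4% in the other 6. What these libraries share beyond the number is not given in the labels, and a cause was not tested.
miR771: tGAGCCTCtgtggtagccctca
miR831-5p: aGAAGCGTacaaggagatgagg

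**Figure D2:**
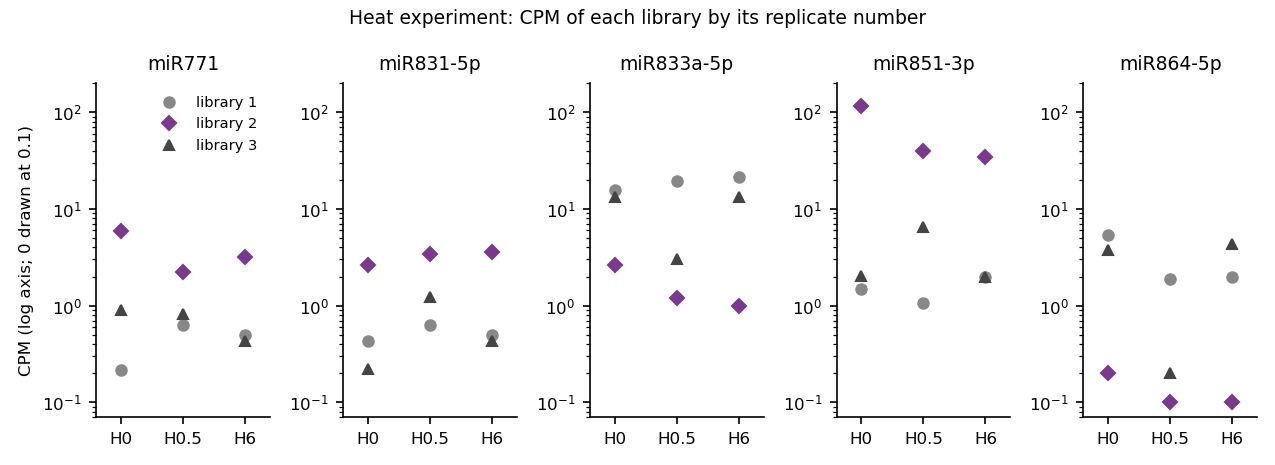
CPM of 5 members in each heat library on a log axis, by time at 37 °C and replicate number, with a read count of 0 drawn at 0.1. The libraries numbered 2 (purple) are above the others for miR771, miR831-5p and miR851-3p and below them for miR833a-5p and miR864-5p.

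Among leaf libraries, C20 replicate 1 had 106 CPM of miR780.1 and 176 CPM of miR780.2, where the other 2 libraries of C20 had 4.94 and 5.52 CPM of miR780.1 and 11.9 and 12.04 CPM of miR780.2. The same library had 10.6 CPM of miR854, against 2.16 and 2.76 CPM. At the other end, C30 replicate 3 had no read of either miR780 sequence. Values that rest on these libraries are given with and without them.

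To see how the members respond to stress, each stressed group was compared with its control by edgeR's quasi-likelihood test over all sequences with enough reads, and a sequence was called at an adjusted p under 0.05. Fold changes are on the log2 scale, stress over control, with TMM scaling. Between 15 and 23 members had enough reads in a stress comparison. There were 8 calls of 5 members in 4 of the 9 stress comparisons, 7 of them lower and 1 higher under stress. In each of the 8 the stressed and control libraries did not overlap in CPM. Lack of overlap was common in these comparisons, at 37.7% of all sequences tested for D20, 19.1% for H6, 49.4% for NaCl+ and 28.8% for Cd+, and at 94.4 to 100% of all sequences called.

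**Figure D3:**
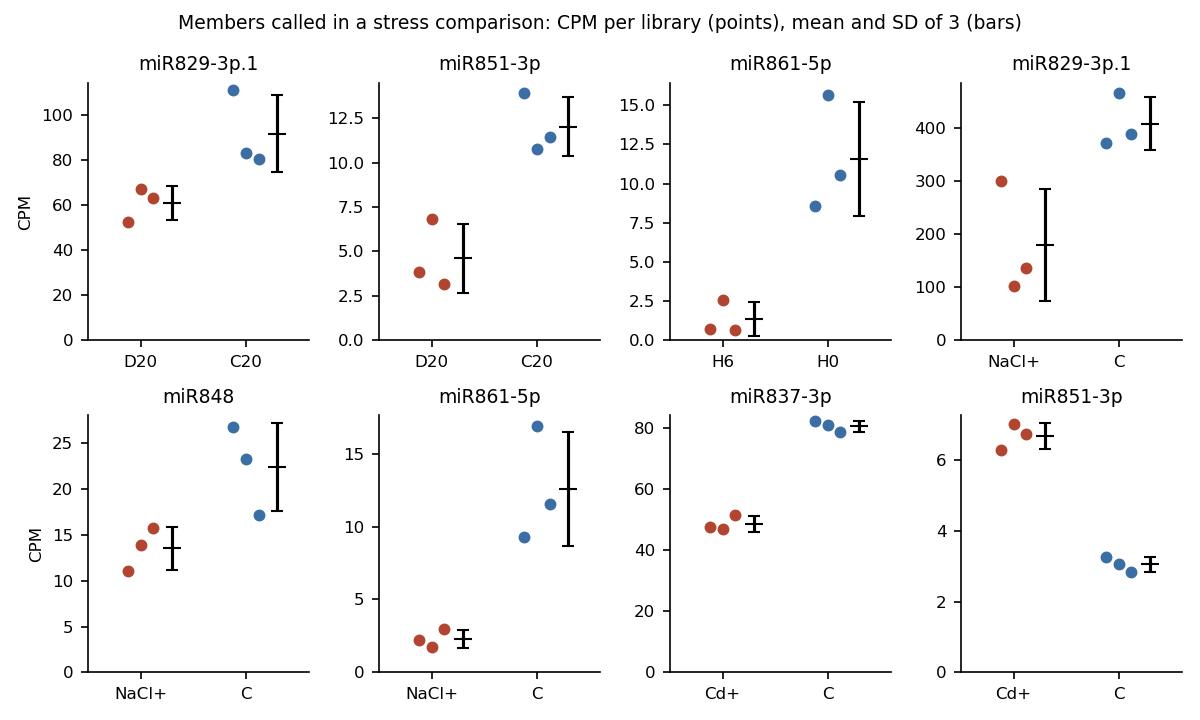
CPM of each library for the 8 calls, stressed group on the left and its control on the right, with the mean and SD of the 3 libraries as a bar. The points of the 2 groups do not overlap in any panel, and only miR851-3p in Cd+ lies above its control.

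Among the members with enough reads for the test, miR861-5p had the largest log2 fold changes in H6 and in NaCl+. It had 0.743, 2.58 and 0.653 CPM in H6 against 8.57, 15.6 and 10.5 CPM in H0. All H6 libraries were below all H0 libraries, and the highest of H6 was the library numbered 2. The log2 fold change was -2.79 ± 0.64 (SE, n = 3 each, adjusted p = 0.0444), and it was the only one of 16 members tested that was called, where 6.79% of all sequences tested were called and 5.56% were called lower. Without the heat libraries numbered 2 the log2 fold change was -3.72 ± 0.48 with an adjusted p of 0.00131, and with the replicate number as a block it was -2.92 with an adjusted p of 2.02e-07. Leaving out H0 replicate 1, H0 replicate 3, H6 replicate 1 or H6 replicate 3 ended the call, with adjusted p up to 0.130. With the block 19 of the 162 sequences tested were called in place of 11.

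At 0.5 h miR861-5p had 4.44, 7.64 and 3.25 CPM in H0.5, all below the 8.57 to 15.6 CPM of H0, but the log2 fold change of -0.80 ± 0.40 was not called (adjusted p = 0.469). The direct comparison of H6 with H0.5 gave -1.84 ± 0.64 with an adjusted p of 0.256. The partner arm miR861-3p had no read in H6, and it had at most 0.828 CPM in any library.

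Under salt miR861-5p had 2.20, 1.73 and 2.94 CPM in NaCl+ against 9.30, 16.9 and 11.5 CPM in C. The log2 fold change of -2.61 ± 0.43 had an adjusted p of 0.000749 and was called in each of 14 alternative fits, at -2.36 to -4.02. The NaCl+ values rest on 9 reads in all, against 155 in C. In the drought, copper, cadmium and sulfur experiments miR861-5p stayed between 5.77 and 18.7 CPM, with group means of 8.20 CPM in D30, 13.9 in C30, 12.4 in D20 and 12.4 in C20, and 12.1 to 15.1 CPM in Cu-, Cu+, Cd+ and S-.

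Salt brought 3 calls among the 15 members tested, all of them lower, where 33.3% of all sequences tested were called and 12.8% were called lower. Next to miR861-5p these were miR829-3p.1 and miR848. miR829-3p.1 had 301, 102 and 135 CPM in NaCl+ against 372, 466 and 389 CPM in C. NaCl+ replicate 1 was nearest to the controls, and the log2 fold change was -1.25 ± 0.42 (adjusted p = 0.0359). Without NaCl+ replicate 2 it was -0.95 with an adjusted p of 0.0743, and without NaCl+ replicate 1 it was -1.92.

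miR848 had 11.01, 13.8 and 15.7 CPM in NaCl+ against 26.7, 23.3 and 17.2 CPM in C. The gap between the groups was narrow, and the log2 fold change of -0.87 ± 0.31 was just past the threshold (adjusted p = 0.0477). It was lost in 8 of 14 alternative fits, including 5 of the 6 that left out a library. Outside NaCl+ miR848 was between 17.1 and 42.6 CPM, highest in D20.

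The total of the miRNAs was itself lower under salt. miRNAs made up 9.84 to 16.7% of the genome-mapped reads in NaCl+ and 36.9 to 41.2% in C, and the members 0.00567 to 0.0108% in NaCl+ and 0.0302 to 0.0313% in C. When genome-mapped reads set the scale, the median over all sequences moved by -1.46 on the log2 scale and 12 of the 15 members were called, all lower, where 75% of all sequences tested were called. The 3 calls above were already lower, so a scale that moves the values down could not change their direction. Of the 15 members tested, 8 changed direction with this scale. The fold changes given here for NaCl+ are relative to the other miRNAs of the library.

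Some members had higher values in NaCl+ and were not called in this fit, though other fits called them. They were chosen after their values were seen. miR837-5p had 19.1, 6.34 and 7.85 CPM in NaCl+ against 3.49, 4.09 and 4.95 CPM in C, with a log2 fold change of 1.30 ± 0.49 (adjusted p = 0.0559). It was called with RLE scaling, with total miRNA counts as the scale, in the joint fit of all libraries and with the replicate block (adjusted p of 0.0105 to 0.0412), but not by DESeq2 (adjusted p = 0.0897) and not without NaCl+ replicate 1 (log2 fold change 0.63). miR833b was at 4.40, 4.04 and 3.93 CPM in NaCl+ against 1.16, 2.81 and 0.236 CPM in C (log2 fold change 1.45 ± 0.61, adjusted p = 0.0931, and 0.0335 with the replicate block). miR833a-5p was at 30.1, 10.96 and 22.6 CPM in NaCl+ against 9.07, 12.5 and 10.13 CPM in C (0.87 ± 0.40, adjusted p = 0.121, and 1.22 with an adjusted p of 0.0158 without NaCl+ replicate 2). With genome-mapped reads as the scale miR837-5p and miR833a-5p lay below 0, at -0.17 and -0.62, and miR833b at 0.03. miR847 had too few reads for the edgeR test, with 6.61, 1.73 and 1.96 CPM in NaCl+ against 0.698, 0.256 and 0.471 CPM in C. DESeq2 gave it a log2 fold change of 2.58 (adjusted p = 0.0424), and edgeR without the read filter 2.44 (adjusted p = 0.0495). The one-way F test on CPM did not pass miR847 (unadjusted p = 0.137), and it was not in the fit with genome-mapped reads as the scale.

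miR831-5p had too few reads for the test but was seen in NaCl+ and not in its control. It had 8, 4 and 10 reads (5.87, 2.31 and 9.82 CPM) in NaCl+ and none in the 3 C libraries. In CPM it was thus at least 22.2-fold higher when C is set at 3 reads over the group. This bound is relative to the miRNA total, which was lower under salt, and was not computed per genome-mapped read. Without the read filter edgeR gave it an adjusted p of 0.0133, and DESeq2 gave 1.08e-05. The one-way F test on CPM narrowly missed its threshold (unadjusted p = 0.0506). It was chosen after its values were seen. It had 5 reads in all in the 15 libraries of Cu-, Cu+, Cd+, S- and C, 1 read in the 12 leaf libraries, and its other reads in the heat libraries, mostly those numbered 2. The other arm, miR831-3p, was at 4.40, 1.15 and 1.96 CPM in NaCl+ against 1.16, 0 and 0.471 CPM in C.

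**Figure D4:**
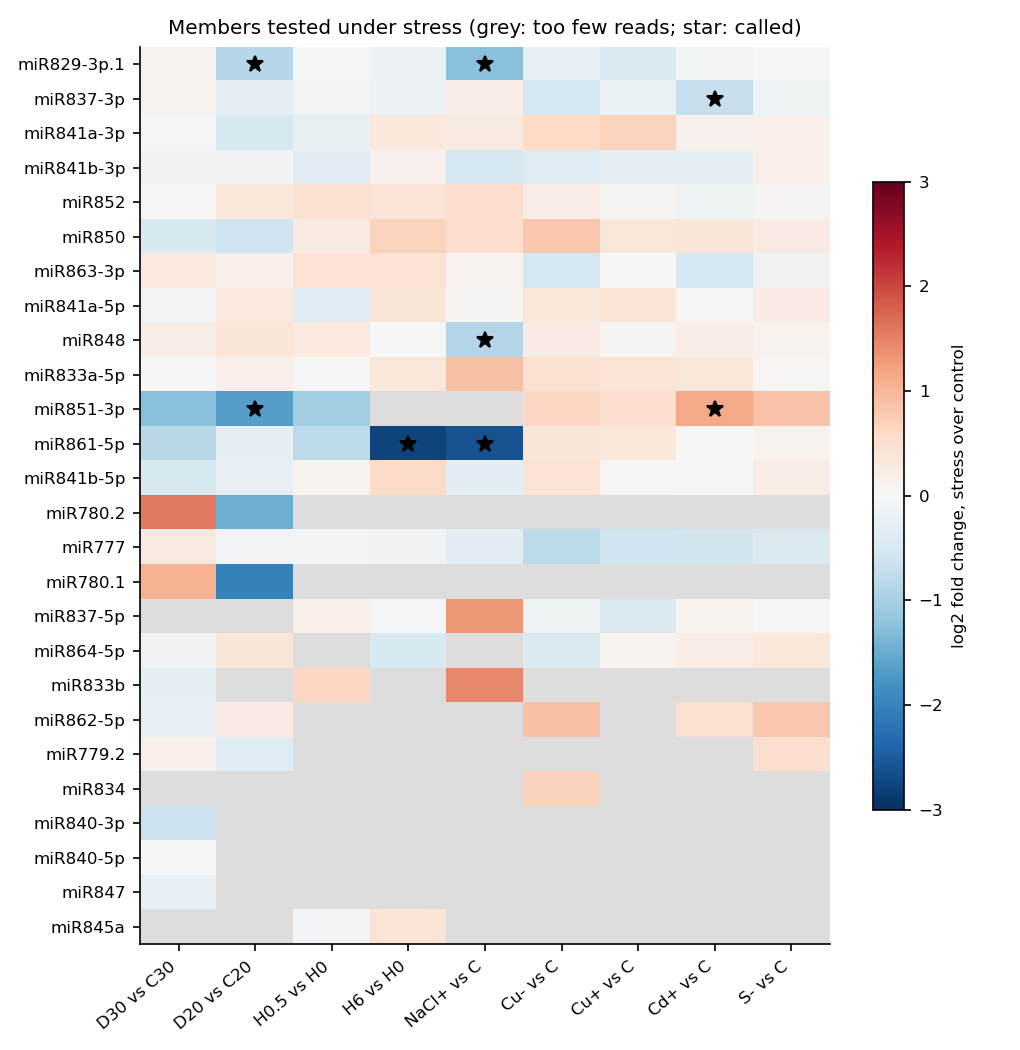
Log2 fold changes, stress over control, of the 26 members with enough reads in at least 1 of the 9 stress comparisons, ordered by reads from top to bottom, in colour from -3 to 3. Stars mark the 8 calls and grey the comparisons with too few reads. The strongest blue is miR861-5p in H6 and NaCl+.

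In severe drought 2 of 19 members tested were called, both lower in D20, where 19.8% of all sequences tested were called and 10.8% were called lower. miR851-3p had 3.84, 6.81 and 3.16 CPM in D20 against 13.9, 10.8 and 11.4 CPM in C20. The groups were well apart, with a log2 fold change of -1.64 ± 0.35 (adjusted p = 0.0139). The call was lost without D20 replicate 3 (adjusted p = 0.0737) and in the fit of all libraries together (adjusted p = 0.388). miR829-3p.1 had 52.4, 67.0 and 62.9 CPM in D20 against 111, 83.0 and 80.3 CPM in C20, a log2 fold change of -0.85 ± 0.20 (adjusted p = 0.0188). This call held when C20 replicate 1 was left out (-0.67, adjusted p = 0.0421) and was lost when any other library was left out, with adjusted p up to 0.110. It was also lost with total miRNA counts as the scale, in the fit of all libraries together and with the replicate block.

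In mild drought none of 23 members was called by edgeR, where 0.602% of all sequences tested were called. At an unadjusted p under 0.05 there were 3 (miR850, miR851-3p and miR861-5p, all lower in D30), where 15.1% of all sequences tested were. DESeq2 called 0 members and 1.37% of all sequences. A one-way F test on CPM, unadjusted and run on every sequence with a read in the comparison, passed 5 of 57 members (8.77%) and 9.59% of all sequences. miR851-3p was nearest to the threshold, with 14.3, 5.65 and 5.76 CPM in D30 against 14.2, 22.8 and 18.1 CPM in C30. D30 replicate 1 lay within the range of the controls, and the log2 fold change was -1.24 ± 0.35 (adjusted p = 0.166). miR829-3p.1 was at 94.0, 58.4 and 99.1 CPM in D30 against 77.8, 86.8 and 50.5 CPM in C30, in mixed order.

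The effect of severe drought was then set against that of mild drought in a fit of all 12 leaf libraries. By edgeR 0 of 24 members differed, where 3.39% of all sequences tested did. At an unadjusted p under 0.05 there was 1 member, where 19.8% of all sequences were. This was miR829-3p.1, with a difference of the log2 fold changes of -0.83 ± 0.33 (adjusted p = 0.172), which DESeq2 called (-0.93, adjusted p = 0.0370) as the only member, along with 6.89% of all sequences. For miR851-3p the difference was -0.28 ± 0.48 (adjusted p = 0.744), so its lower level in D20 was not shown to differ from that in D30.

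The miR780 pair was erratic in the drought experiment. miR780.2 had 20.4, 5.93 and 24.9 CPM in D30 against 12.96, 2.78 and 0 CPM in C30, and 38.4, 18.2 and 23.7 CPM in D20 against 176, 11.9 and 12.04 CPM in C20. The log2 fold change was 1.59 ± 0.78 for D30 (adjusted p = 0.331) and -1.47 ± 0.96 for D20 (adjusted p = 0.349). Without C20 replicate 1 the D20 value was 0.92 ± 0.37 (adjusted p = 0.115). Without C30 replicate 3, the library with no read, the D30 value was 0.98 ± 0.56 (adjusted p = 0.551). Without C30 replicate 1 the D30 value was 3.53 ± 0.77 (adjusted p = 0.0447). That was the only D30 fit with 1 library left out in which miR780.2 was called. miR780.1 had fewer reads than miR780.2 in every leaf library where either was seen and its highest value in the same library, and the 2 sequences are adjacent on the precursor, opposite the coding sequence of AT4G14810.
miR780.1: tCTAGCAGctgttgagcaggt
miR780.2: tTCTTCGTgaatatctggcat

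In cadmium excess 2 of 17 members tested were called, 1 in each direction, where 11.2% of all sequences tested were called, 6.25% higher and 5% lower. miR837-3p had 47.5, 46.7 and 51.5 CPM in Cd+ against 82.1, 80.8 and 78.5 CPM in C. The replicates were close together, and the log2 fold change was -0.70 ± 0.14 (adjusted p = 0.0145). miR851-3p had 6.27, 7.01 and 6.72 CPM in Cd+ against 3.26, 3.07 and 2.83 CPM in C, with a log2 fold change of 1.15 ± 0.26 (adjusted p = 0.0220). It rests on 80 reads in Cd+ and 38 in C. Both calls were lost in the fit of all libraries together (adjusted p = 0.197 for miR837-3p and 0.738 for miR851-3p). Leaving out 1 library ended the call of miR851-3p in each of 6 cases and that of miR837-3p in 5.

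In the other groups that share these controls miR837-3p was not called. It was at 45.7, 50.2 and 59.8 CPM in Cu-, all below the 78.5 to 82.1 CPM of C, with a log2 fold change of -0.51 ± 0.17 (adjusted p = 0.0839). In Cu+ it had 76.9, 64.0 and 64.7 CPM, in S- 81.5, 66.3 and 65.2 CPM and in NaCl+ 127, 75.5 and 98.2 CPM. The partner arm miR837-5p had 3.88, 4.44 and 4.87 CPM in Cd+ and 3.49, 4.09 and 4.95 CPM in C, with overlapping ranges.

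Copper deficiency gave no call among 18 members by edgeR, where 10.5% of all sequences tested were called. At an unadjusted p under 0.05 there were 5, 2 of them higher, which is 27.8% of the members, against 30.9% of all sequences. DESeq2 called 0 members and 4.12% of all sequences. With the one-way F test 8 of 55 members (14.5%) and 15.8% of all sequences passed. miR850 came nearest, with 25.8, 36.9 and 24.8 CPM in Cu- against 21.4, 18.9 and 14.4 CPM in C. The groups did not overlap, and the log2 fold change was 0.80 ± 0.24 (adjusted p = 0.0648, and 0.0499 without the read filter). miR841a-3p had 45.3, 53.4 and 45.7 CPM in Cu- against 34.9, 30.9 and 37.7 CPM in C (0.60 ± 0.18, adjusted p = 0.0654).

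Copper excess gave no call among 16 members by edgeR, where 1.24% of all sequences tested were called, 2 in all and 0 with the replicate number as a block. At an unadjusted p under 0.05 there were 3 members (18.8%) and 12.4% of all sequences. DESeq2 called 0 members and 1.39% of all sequences. The one-way F test passed 8 of 51 members (15.7%) and 8.01% of all sequences. miR841a-3p again came nearest, with 51.2, 56.2 and 54.0 CPM in Cu+ against 34.9, 30.9 and 37.7 CPM in C, a log2 fold change of 0.68 ± 0.16 (adjusted p = 0.110). The direct comparison of Cu- with Cu+ gave 0 calls among 18 members, where 0% of all sequences tested were called, with 2 members (11.1%) and 16.3% of all sequences at an unadjusted p under 0.05. DESeq2 called 0 members and 0.683% of all sequences there, and by the F test 3 of 56 members (5.36%) and 10.2% of all sequences passed. miR863-3p differed most there, with 16.1, 16.4 and 17.8 CPM in Cu- against 27.5, 25.0 and 24.9 CPM in Cu+ (log2 fold change -0.68 ± 0.16, adjusted p = 0.149). As background, miR863-3p is known to repress the receptor-like pseudokinase genes ARLPK1 and ARLPK2 and, in bacterial infection, SERRATE, a component of miRNA processing.

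Sulfur deficiency gave no call among 18 members by edgeR, where 0% of all sequences tested were called. None had an unadjusted p under 0.05, against 4.97% of all sequences, and DESeq2 called 0 members and 0% of all sequences. By the one-way F test 3 of 54 members (5.56%) and 5.15% of all sequences passed. miR851-3p came nearest, with 7.27, 2.72 and 6.24 CPM in S- against 3.26, 3.07 and 2.83 CPM in C, in overlapping ranges (log2 fold change 0.85 ± 0.39, adjusted p = 0.705).

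The first 0.5 h of heat gave no call among 17 members by edgeR, where 1.23% of all sequences tested were called. None had an unadjusted p under 0.05, against 12.3% of all sequences, and DESeq2 called 0 members and 2.04% of all sequences. The one-way F test passed 1 member, miR841b-3p, and 9.86% of all sequences. miR852 had the smallest p, at 36.8, 39.4 and 34.4 CPM in H0.5 against 31.9, 41.0 and 32.9 CPM in H0 (log2 fold change 0.46 ± 0.22, adjusted p = 0.433). Between H6 and H0.5 no member of 17 was called by edgeR, where 3.11% of all sequences tested were called, with 1 member at an unadjusted p under 0.05 (miR861-5p), against 11.2% of all sequences. DESeq2 called 0 members and 4.11% of all sequences, and the F test passed 0 members and 5.48% of all sequences. Without the heat libraries numbered 2 the count of called members was the same in all 3 heat comparisons.

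Organ was the contrast with the most called members. Unstressed leaves (C30 and C20) were compared with unstressed seedlings (H0 and C), a contrast in which organ, age, growth on soil or in plates and experiment cannot be told apart. Of 26 members tested 12 were called, 7 higher and 5 lower in leaves, where 51.9% of all sequences tested were called, 21.1% higher and 30.8% lower. The share among the members, 46.2%, was thus near that of all sequences. In 5 of the 12 the leaf and seedling libraries did not overlap. Among the members tested 9 of 26 did not overlap, or 34.6%, against 36.2% of all sequences tested.

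Lowest in leaves relative to seedlings was miR829-3p.1, with a lowest, median and highest value of 50.5, 81.7 and 111 CPM in the 6 leaf libraries against 222, 380 and 466 CPM in the 6 seedling libraries. The log2 fold change was -2.82 ± 0.18 (adjusted p = 1.95e-07), and it stood 2nd of the 185 sequences tested by p. Other pieces of its precursor were also scarcer in leaves, with 3 reads of miR829-5p in the 6 leaf libraries against 29 in the 6 seedling libraries. miR845a, which shares the 13-base stretch, had 212 reads in all and was at 0 to 0.618 CPM in the 12 leaf libraries against 0.233 to 5.28 CPM in the 27 seedling libraries, highest in the heat experiment.

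Both arms of miR837 were lower in leaves. miR837-3p had 17.6, 20.7 and 37.1 CPM as lowest, median and highest in leaves against 25.6, 73.0 and 82.1 CPM in seedlings, where H0 replicate 2 was the lowest. Its log2 fold change was -2.07 ± 0.22 (adjusted p = 9.65e-06). miR837-5p had 0.828, 1.36 and 1.85 CPM in leaves against 2.24, 4.19 and 7.39 CPM in seedlings, without overlap (-2.32 ± 0.32, adjusted p = 6.84e-05).
miR837-5p: aTCAGTTTcttgttcgtttca

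miR850 and miR847 were higher in leaves without overlap. miR850 had 34.1, 73.8 and 82.2 CPM in leaves against 12.6, 17.8 and 21.4 CPM in seedlings (log2 fold change 1.32 ± 0.24, adjusted p = 0.000623). miR847, which in Arabidopsis is known to target the auxin repressor gene IAA28, had 1.66, 3.33 and 5.56 CPM in leaves against 0.256, 0.585 and 1.07 CPM in seedlings (1.67 ± 0.32, adjusted p = 0.000735). MIR863 lies near MIR850 on chromosome 4, with 1057 bases between miR850 and miR863-3p, and miR863-3p had 39.8, 41.3 and 52.1 CPM in leaves against 18.9, 25.4 and 30.0 CPM in seedlings. These values did not overlap either, but the scaled log2 fold change was 0.19 ± 0.14 (adjusted p = 0.301).
miR850: tAAGATCCggactacaacaaag
miR847: tCACTCCTcttcttcttgatg

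miR854 had 1.73, 2.61 and 10.6 CPM in leaves against 0.203, 0.244 and 0.707 CPM in seedlings, a log2 fold change of 2.59 ± 0.52 (adjusted p = 0.00108) and of 2.14 (adjusted p = 0.00118) without C20 replicate 1, the library with 10.6 CPM. It is known for its match to the transcript of UBP1, an RNA-binding protein, and its gene copies sit in retrotransposon sequence. miR780.1 had 0, 5.23 and 106 CPM in leaves against 0, 0.218 and 0.671 CPM in seedlings (4.62 ± 1.24, adjusted p = 0.00826), and miR780.2 had 0, 11.95 and 176 CPM against 0.813, 1.12 and 1.65 CPM (3.29 ± 0.91, adjusted p = 0.00932). Without C20 replicate 1 these were 3.28 (adjusted p = 0.0132) and 2.16 (adjusted p = 0.0207), and without C30 replicate 1 the call of miR780.1 was lost (adjusted p = 0.165). Both were still called without C30 replicate 3, but DESeq2 called neither miR780.1 nor miR780.2.
miR854a,b,c,d,e: gATGAGGAtagggaggaggag

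Weaker differences were those of miR840-5p and miR779.2. miR840-5p had 2.16, 3.08 and 5.25 CPM in leaves against 0.428, 0.732 and 2.24 CPM in seedlings (1.01 ± 0.38, adjusted p = 0.0435). miR779.2 had 2.72, 3.09 and 5.87 CPM in leaves against 0.428, 1.02 and 3.26 CPM in seedlings (0.98 ± 0.35, adjusted p = 0.0341). Both sets of libraries overlapped, and DESeq2 called neither (adjusted p = 0.0699 for miR840-5p and 0.0560 for miR779.2).

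The calls of miR848 and miR852 rest on the scaling. miR848 had 20.1, 24.9 and 28.7 CPM in leaves against 17.2, 23.5 and 28.1 CPM in seedlings, and miR852 had 33.0, 37.0 and 45.4 CPM against 31.9, 38.2 and 44.7 CPM, so both ranges coincide. With TMM scaling the log2 fold changes were -0.53 ± 0.17 (adjusted p = 0.0207) for miR848 and -0.64 ± 0.15 (adjusted p = 0.00418) for miR852. With the miRNA total as the scale, where the median over all sequences moved by 0.63, they were 0.09 (adjusted p = 0.646) and -0.015 (adjusted p = 0.925). The direction of miR848 thus changed with the scaling, while the other 11 kept theirs.

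**Figure D5:**
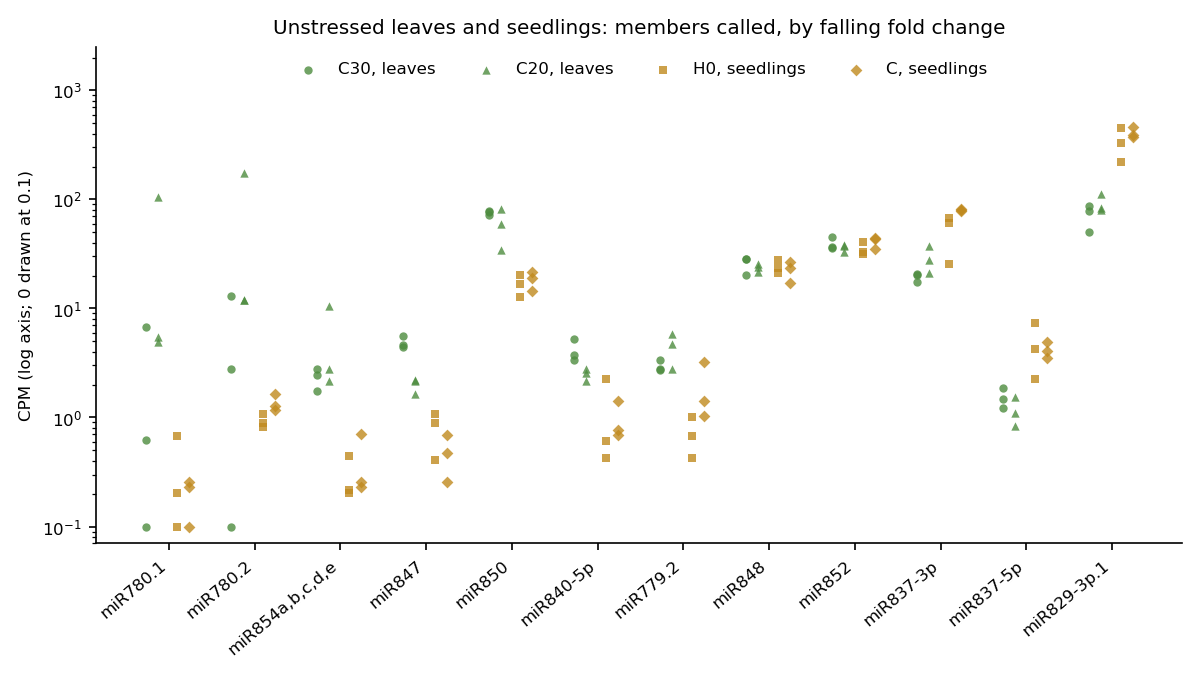
CPM on a log axis of the 12 members called between unstressed leaves (green, C30 and C20) and unstressed seedlings (ochre, H0 and C), 1 point per library, ordered from the highest to the lowest log2 fold change. miR829-3p.1 at the right is 50.5 to 111 CPM in leaves and 222 to 466 CPM in seedlings, while miR848 and miR852 lie at the same height in both.

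Further members with a known role were low throughout. miR840-3p, whose precursor overlaps an exon of AT2G02750, had 0.471 to 4.94 CPM. miR838, which lies in an intron of DCL1, the gene of the enzyme that cuts miRNA precursors, at chr1:28635-28655, had 125 reads in 35 libraries and at most 4.40 CPM, in NaCl+. miR844, known to target CDS3, a gene of phospholipid synthesis, had 124 reads of the 5p and 103 of the 3p arm, each with its highest group mean in NaCl+ (1.47 and 1.64 CPM). These means rest on 2, 0 and 3 reads of the 5p arm and on 0, 0 and 5 reads of the 3p arm. miR826a and miR826b, known for their link to the glucosinolate gene AOP2, had 1 and 12 reads, miR845b had 7 and miR863-5p had 11, too few for any comparison.

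miR841b-5p, with 1493 reads, and miR777, at 1.02 to 9.91 CPM, were seen in all 39 libraries. So were miR862-5p with 377 reads, miR834 with 284 and miR860 with 278. Lower still were miR835-3p with 153 reads, miR781a,b with 122, miR833a-3p with 112, miR830-5p with 100, miR849 with 91 and miR853 with 55, each at most 3.52 CPM in a library. miR864-3p, miR851-5p, miR830-3p, miR835-5p, miR870-3p, miR779.1 and miR862-3p had 13 to 35 reads, too few for the edgeR test in any comparison of all libraries.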

How the data were processed

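The authors aligned small RNA reads to the mature Arabidopsis miRNAs of miRBase with a script from a published package, mapped them to TAIR10 with Bowtie 1.0.0, and deposited raw counts per distinct mature sequence for each library. The deposited sheets also hold CPM, mean CPM, fold changes and p-values of a one-way F test by the authors, which were not used. An RNA quality score (RIN) that the authors deposited for each library was 8 to 9.3, and 91.9 to 99.1% of reads mapped to the genome.

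From the counts, CPM were recomputed, and each comparison was fitted with edgeR 4.0.16 (R 4.3.3, quasi-likelihood F test, scaled by TMM, with low counts removed by filterByExpr at its minimum of 10, Benjamini-Hochberg adjustment over all sequences tested). Calls had an adjusted p under 0.05. Only the libraries compared entered a fit. Alternatives were DESeq2 1.42.0, other scalings, no read filter, a fit of all 39 libraries, a one-way F test on CPM, a block for the replicate number, and leaving out each library. Leaving out the heat libraries numbered 2 was chosen after seeing the data. The scripts were tested on simulated data. A simulated 2-fold change was called in 18.2% of the changed sequences for H0.5 and 18.5% for H6. It was called in 7.69% for H6 against H0.5 and 20% for leaves against seedlings. In the other comparisons the share was 26.9 to 89.3%, so 2-fold changes could be missed also in sequences with enough reads. Deposited sequences were matched exactly to the RefSeq copy of TAIR10.1.

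The members and lists were chosen with earlier results of these data known. Members named with all values are those called in any of the 13 comparisons. Named with a level are the 12 with the most reads, the one with the smallest p in a stress comparison without a call, and a list with known biology (miR826a, miR826b, miR838, miR840-3p, miR840-5p, miR844-3p, miR844-5p, miR845a, miR845b, miR847, miR854, miR863-3p and miR863-5p).

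The labels number the replicates but tie no number to a shared day or batch. Libraries with the same number deviated together, with every correlation over 0.1, in H6 against H0 (0.35 to 0.72) and in Cu+ against C (0.18 to 0.33), as read from the counts. Replicates are biological per the labels, so p-values weigh a difference against the spread between such samples. Limits that a count of 0 allows cover counting error only.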

Additional observations from a re-analysis of the deposited data

How the results depend on the processing

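Most members hold too few reads for a test, and 1 read can be worth up to 0.982 CPM, so small changes of rare members were not detectable at this depth. Over the counts of called members, the shares and the fold changes of called members, 417 values kept their direction and side of the threshold or moved little, 67 lost the threshold, 42 counts or shares moved and 1 reversed. Members that were not called are not in this tally, and some of them changed direction with a scaling or a library left out, such as miR780.2 in D20. The one-way F test on CPM without adjustment passed more members than edgeR called: 5 for D30, 6 for D20, 1 for H0.5, 3 for H6, 11 for NaCl+, 8 for Cu-, 8 for Cu+, 4 for Cd+, 3 for S- and 3 for Cu- against Cu+. It passed 5.15 to 24.9% of all sequences in these comparisons and 1.79 to 21.2% of the members. The count for D20 was 1 with total miRNA counts as the scale, where 35 of all 167 sequences tested were called. It was 0 in the joint fit of all libraries, where 33 of all 167 were called. For NaCl+ it was 12 with genome-mapped reads (80% of the members, against 75% of all sequences). It was 5 with DESeq2 (9.62%, against 19.3%) and 5 in the joint fit, where 49 of all 156 sequences were called. For Cd+ it was 1 with genome-mapped reads (5.88%, against 7.5%) and 1 with DESeq2 (1.89%, against 5.56%). In the joint fit it was 0 for Cd+, where 0 of all 160 sequences were called. Without the read filter Cu- had 1 call among the members and 17 among all 291 sequences. DESeq2 called 1 member between the D20 and D30 effects (1.64%, against 6.89% of all sequences). The joint fit called 2 members between H6 and H0.5, where 15 of all 161 sequences were called. The members held a median of 0.0240% of the genome-mapped reads of a library, in place of a median of 0.0637% of the miRNA reads. For miR848 in leaves against seedlings the log2 fold change was 0.087 with total miRNA counts as the scale, in place of -0.53. Leaving out 1 library at a time gave 0 to 1 calls of members for D30, 0 to 3 for D20, 0 to 1 for H6, 3 to 5 for NaCl+, 0 to 1 for Cd+ and 10 to 13 for leaves against seedlings. Each of these fits tested 151 to 195 sequences. Over all of them 0 to 5 were called for D30, 7 to 44 for D20 and 0 to 12 for H6. For NaCl+ 45 to 59 were called, for Cd+ 2 to 24, and for leaves against seedlings 86 to 101.

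With the replicate block the count of called members was 1 for D20, 4 for NaCl+ and 0 for Cd+, and it was the same as without the block in the other stress comparisons. Over all sequences the block called 27 of 167 for D20, 57 of 156 for NaCl+ and 8 of 160 for Cd+. Without it these were 33, 52 and 18. In D20, NaCl+ and Cd+ the libraries share only a number with their controls. The block changed no call of a member in H6 or Cu+. No block was fitted for leaves against seedlings, which come from different experiments.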
